A study of Mus musculus with 8 samples.

Results

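Chemokines and their receptors were examined in mouse megakaryocytes, the large polyploid marrow cells that shed platelets, after culture in a soft hydrogel or in liquid medium. The genes were 30 listed by symbol, 20 chemokines and 10 receptors, and 29 of them had a row among the 27679 genes of the count table; Ccl12, a ligand of Ccr2, was not analysed here. Polyadenylated RNA was sequenced from 8 libraries, 4 of hydrogel and 4 of liquid culture, and the submitters state that the 4 replicates of a culture were independent. Both groups were wild-type C57BL/6 marrow cells depleted of lineage-positive cells and cultured over 3 days, in a gel of 2% methylcellulose (Young modulus 30 to 60 Pa) or in liquid, before a BSA gradient of 2 to 4% was used to collect the large, mature cells. No step in the labels selects on a megakaryocyte surface protein, and the age of the mice is not given in the sources used here.

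Chemokines are small secreted proteins that steer migrating leukocytes. They are classed by the spacing of their first cysteines as CC, CXC or CX3C, and most act on receptors that couple to inhibitory G proteins. Inflammatory ligands such as Ccl3 and Ccl4 recruit monocytes and other leukocytes, CXC ligands of the Cxcl5 kind recruit neutrophils through Cxcr2, and Cxcl12 holds blood cells in the marrow through Cxcr4, a receptor that megakaryocytes carry. Megakaryocytes also make the platelet chemokines Pf4 (platelet factor 4) and Ppbp (the precursor of Cxcl7) and pack them into alpha-granules.

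In hydrogel, 6 of the 23 chemokine and receptor genes with enough counts to be tested rose and 7 fell, where 15.1% of all tested genes were called higher and 14.1% lower (29.3% in either direction). The genes that rose were the monocyte attractants Ccl3, Ccl4 and Ccl9, the membrane-bound chemokine Cxcl16, and the receptors Ccr1 and Ccr2. The genes that fell were Ccl5, Ccl22, Cxcl5, Cxcl10 and the receptors Ccr7, Ccr9 and Cxcr4. Changes ran from 4.48-fold higher for Ccl4 to 27.6-fold lower for Ccr9, in edgeR's quasi-likelihood test with Benjamini-Hochberg adjustment over 13845 genes at 0.05.

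These counts are 26.1% and 30.4% of the tested chemokine and receptor genes. Over the 23 tested genes, all 4 hydrogel libraries lay above all 4 liquid libraries for 4 and below them for 7. Over all tested genes, 14.6% and 13.8% separated in these directions. The 4 were among the 6 genes that rose, and the 7 were the genes that fell. Separation and call rest on the same values, so they are not separate results. By role, 4 of 14 tested ligands rose and 4 fell, and 2 of 9 tested receptors rose and 3 fell. With upper-quartile scaling the split over all genes was 1755 higher and 2492 lower, where it was 2096 and 1956 with TMM scaling, and among the chemokine and receptor genes it was 6 and 8. The median log2 change was 0.20 over the 23 genes and −0.01 over all tested genes. A low gene could enter the test through its higher culture alone, as Ccl5, Ccl22, Ccr7 and Ccr9 did through liquid. These shares and separations therefore describe the genes tested and not the full list. Without hydrogel 2, 4 of 24 tested chemokine and receptor genes were higher, where 1476 of all 14127 tested genes were. Without hydrogel 3 it was 4 of 23, where 1528 of all 14120 were. Without hydrogel 1 it was 9 of 26 (2186 of all 14088), and without liquid 2 it was 9 of 25 (2529 of all 14060). The number that were lower stayed between 6 and 8 over the 8 single omissions, and over all tested genes it ran from 1224 to 2446. Of libraries from different cultures, hydrogel 1 and liquid 2 lay nearest to each other on the first principal component of all tested genes, which held 65.1% of the variance. Leaving out both was an alternative chosen after the data were seen, and this choice by itself widens the gap between the cultures. Of 25 chemokine and receptor genes then tested, 9 were higher and 9 lower, where 2995 and 2638 of all 13890 tested genes were. Ccl6, Cx3cr1 and Ccl24 joined the first, and Cxcl3 and Ackr3 the second. Log2 changes became 2.22 for Ccr1, 2.01 for Ccl9, 2.43 for Ccr2, −1.59 for Ccl5, −2.25 for Ccl22, −2.12 for Ccr7 and −3.83 for Ccr9.

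**Figure D1:**
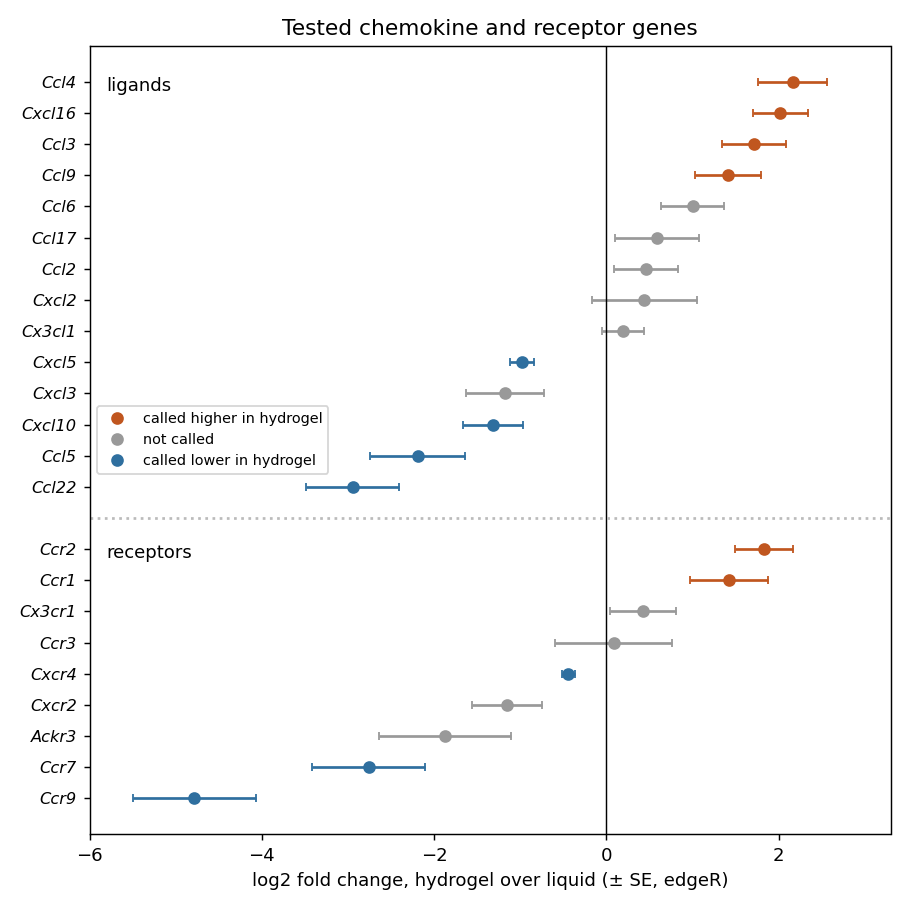
Log2 fold change of hydrogel over liquid for the 23 tested chemokine and receptor genes, ligands above and receptors below, with bars of 1 standard error from edgeR. Colours give the call at an adjusted p of 0.05; Ccl4 has the largest rise at 2.16 and Ccr9 the largest fall at −4.78.

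Several of these genes lie side by side, and their neighbours did not move together throughout. On chromosome 11 the order of protein-coding genes in GENCODE M21 is Ccl5, Ccl9, Ccl6, a ribosomal protein gene copy, Ccl3 and Ccl4; Ccl5 fell while Ccl9, Ccl3 and Ccl4 rose. On chromosome 5 the order is Cxcl5, Ppbp, Pf4, Cxcl3, Cxcl15, Cxcl1 and Cxcl2; Cxcl5 and Pf4 fell, and the others were not called or not tested. On chromosome 8 Ccl22, which fell, is followed by Cx3cl1 and Ccl17, which were not called.

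The promoters of 22 of the 30 genes were matched by symbol in RefSeq (GRCm38.p6, another build than the GRCm39 of the counts). For Ccl3, Cx3cl1 and Cxcr4 a check of the start against GENCODE M21 transcripts found no match. The 250 bases before the start were searched on both strands for the kappaB motif of NF-kB, for TGANTCA of AP-1 and for GAGGAA of PU.1-type ETS factors. A kappaB match stood in 6 of the 22 (27.3%), against 3.90% of 32851 promoters, an AP-1 match in 3 (13.6%, against 6.75%) and a GAGGAA match in 8 (36.4%, against 23.3%). Among the promoters with a kappaB match were genes that rose, fell and were not called. Of 4 promoters of genes that rose 1 held it (Ccl9), as did 1 of 4 of genes that fell (Cxcl10) and 3 of 9 of genes not called (Cxcl2, Cxcl3 and Ccr3) and 1 of 4 of genes not tested (Cxcl1). The sequences below show this contrast, with Ccl22, the ligand with the largest fall, as one without a match. Capitals mark matches to these motifs, which in Cxcl2 and Cxcl3 is a kappaB match read on both strands; a match is a stretch of letters and not a measured binding site.
Ccl9, chr11:83578637-83578886, minus strand: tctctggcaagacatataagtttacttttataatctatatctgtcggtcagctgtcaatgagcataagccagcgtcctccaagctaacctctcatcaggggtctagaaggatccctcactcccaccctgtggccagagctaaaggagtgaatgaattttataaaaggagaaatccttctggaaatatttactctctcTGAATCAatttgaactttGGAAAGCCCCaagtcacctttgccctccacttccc
Cxcl10, chr5:92348890-92349139, minus strand: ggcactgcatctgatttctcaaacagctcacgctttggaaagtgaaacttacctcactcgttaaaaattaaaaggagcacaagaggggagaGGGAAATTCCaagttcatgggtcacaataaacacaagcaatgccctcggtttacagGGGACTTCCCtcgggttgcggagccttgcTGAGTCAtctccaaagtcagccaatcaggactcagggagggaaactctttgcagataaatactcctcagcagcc
Cxcl2, chr5:90903649-90903898, plus strand: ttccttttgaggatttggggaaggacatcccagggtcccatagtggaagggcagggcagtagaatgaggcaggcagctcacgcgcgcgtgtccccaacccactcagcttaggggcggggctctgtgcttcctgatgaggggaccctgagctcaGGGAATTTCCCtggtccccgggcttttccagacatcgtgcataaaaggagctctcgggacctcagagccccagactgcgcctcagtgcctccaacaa
Cxcl3, chr5:90785851-90786100, plus strand: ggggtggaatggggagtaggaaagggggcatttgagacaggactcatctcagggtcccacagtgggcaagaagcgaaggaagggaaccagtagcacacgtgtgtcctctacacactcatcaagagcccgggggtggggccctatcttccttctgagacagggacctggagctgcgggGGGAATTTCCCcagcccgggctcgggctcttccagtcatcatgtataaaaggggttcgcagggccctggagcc
Ccl22, chr8:94745434-94745683, plus strand: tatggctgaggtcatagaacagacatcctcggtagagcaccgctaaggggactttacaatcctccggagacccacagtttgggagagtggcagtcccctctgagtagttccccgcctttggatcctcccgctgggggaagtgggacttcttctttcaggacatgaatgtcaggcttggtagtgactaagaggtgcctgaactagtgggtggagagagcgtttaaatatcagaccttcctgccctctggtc
In Ccl9 the AP-1 match begins 53 bases before the start and the kappaB match 35 bases before it. Cxcl10 holds kappaB matches beginning 159 and 103 bases before the start and an AP-1 match beginning 74 bases before it, and it changed in the opposite direction to Ccl9.

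Of the chemokines that attract monocytes, Ccl4 (ENSMUSG00000018930, an inflammatory CC chemokine) had 4.03, 8.34, 9.71 and 11.3 CPM (read counts scaled to library size by TMM) in hydrogel 1 to 4, against 1.77, 2.43, 0.748 and 2.54 CPM in liquid 1 to 4. The means were 8.34 ± 3.12 CPM in hydrogel and 1.87 ± 0.823 CPM in liquid (SD, n = 4 each). Every hydrogel library lay above every liquid library, and the rise was 2.16 ± 0.40 on the log2 scale (SE, adjusted p = 0.0033, edgeR). Ccl3 (ENSMUSG00000000982), a ligand of Ccr1, had 8.60, 16.8, 24.3 and 21.2 CPM in hydrogel 1 to 4, against 5.33, 8.45, 2.62 and 5.23 CPM in liquid 1 to 4. Its groups did not overlap either, but hydrogel 1 exceeded liquid 2 by little, and the log2 rise was 1.72 ± 0.37 (adjusted p = 0.00728, edgeR).

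Ccl9 (ENSMUSG00000019122), a mouse ligand of Ccr1, was the CC chemokine with the most reads. It had 34.0, 75.6, 86.9 and 75.8 CPM in hydrogel 1 to 4, against 18.6, 42.8, 12.3 and 28.9 CPM in liquid 1 to 4. Here liquid 2 lay above hydrogel 1, and the log2 rise of 1.41 ± 0.38 (adjusted p = 0.0199, edgeR) lost its call without hydrogel 2, hydrogel 3 or liquid 1, with adjusted p of 0.0521 to 0.061. Its neighbour Ccl6 (ENSMUSG00000018927), also a mouse ligand of Ccr1, had 13.9, 25.5, 27.4 and 25.7 CPM in hydrogel, against 10.6, 20.7, 5.10 and 9.86 CPM in liquid. The groups overlapped through the same 2 libraries and Ccl6 did not pass (log2 change 1.0 ± 0.37, adjusted p = 0.0652, edgeR). Without hydrogel 1 its adjusted p was 0.0283.

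Cxcl16 (ENSMUSG00000018920), made as a membrane protein that binds Cxcr6 and also takes up oxidised lipoprotein, had 8.93, 21.6, 21.2 and 16.6 CPM in hydrogel 1 to 4, against 2.57, 6.21, 3.52 and 4.55 CPM in liquid 1 to 4. The groups did not overlap and the rise was 2.02 ± 0.32 on the log2 scale (adjusted p = 0.00158, edgeR), which is 4.06-fold. Its exons overlap the antisense gene Zmynd15, which had 0.301 to 1.0 CPM in hydrogel and 0.161 to 0.822 CPM in liquid, below Cxcl16 in every library. Cxcr6, its receptor, had no read in hydrogel and 26 reads over the liquid libraries.

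Ccl5 (ENSMUSG00000035042), a ligand of Ccr1 and Ccr3, went the other way from its neighbours at 0.164, 0.437, 0.547 and 0.0971 CPM in hydrogel 1 to 4, against 0.931, 2.37, 0.726 and 1.64 CPM in liquid 1 to 4. The groups did not overlap, with a log2 change of −2.19 ± 0.55 (adjusted p = 0.0145, edgeR). Ccl22 (ENSMUSG00000031779), a ligand of Ccr4 made by dendritic cells and macrophages, had 0.0548, 0.219, 0.255 and 0.194 CPM in hydrogel, against 0.835, 2.33, 0.682 and 1.72 CPM in liquid. It fell by 2.95 ± 0.54 on the log2 scale (adjusted p = 0.00309, edgeR), based on 22 reads over the hydrogel libraries and 193 over the liquid libraries. In both genes liquid 2 and liquid 4 were the highest libraries.

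The other CC chemokines were low and did not pass. Ccl2, the main ligand of Ccr2, had 0.877 to 2.26 CPM in hydrogel and 0.559 to 1.22 CPM in liquid (log2 change 0.46 ± 0.37, adjusted p = 0.387, edgeR). Ccl17, the other Ccr4 ligand, had 0.129 to 0.740 CPM in hydrogel and 0.263 to 0.546 CPM in liquid (adjusted p = 0.399, edgeR). Ccl7, a ligand of Ccr2, and Ccl24, an eosinophil attractant, had too few reads to be tested, 10 and 45 over the hydrogel libraries against 26 and 1 over the liquid libraries. Each hydrogel library held some of the 45 reads of Ccl24, and its 1 liquid read was in liquid 3; with no filter on low counts it was called, with an adjusted p of 0.000577.

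**Figure D2:**
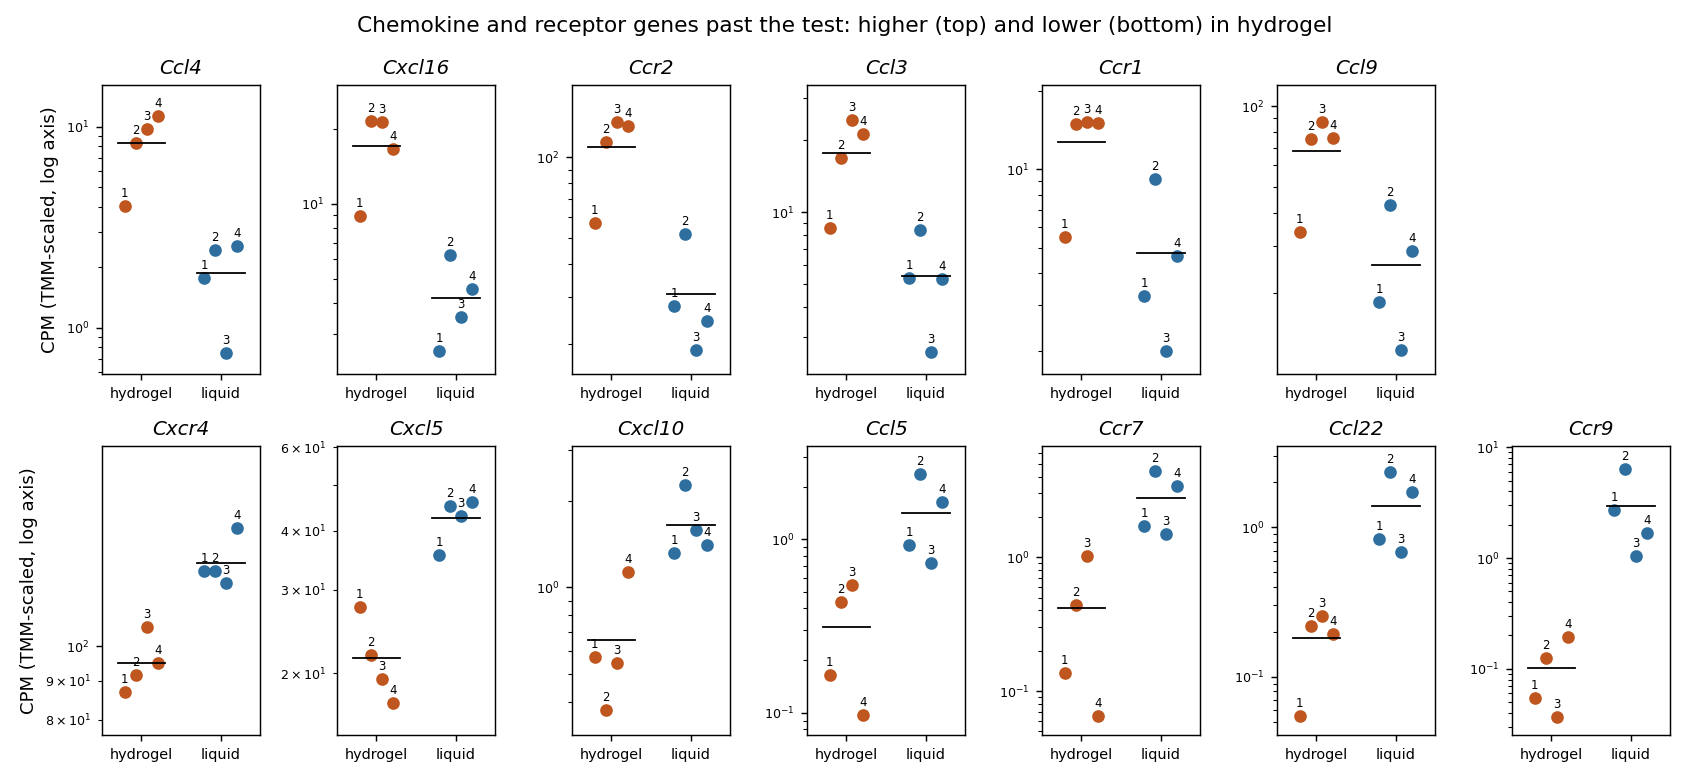
CPM (TMM-scaled, log axis, scaled separately for each gene) of the 13 called chemokine and receptor genes in each library, hydrogel left and liquid right, with replicate numbers beside the points and a line at the mean. In the top row hydrogel 1 is the lowest hydrogel library and liquid 2 the highest liquid library, except Ccl4, where liquid 4 is slightly higher; in the bottom row no group overlaps.

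Among the listed CXC chemokines that bind Cxcr2, which leave out the platelet chemokine Ppbp, Cxcl5 (ENSMUSG00000029371) had the highest level per length and fell. It had 27.6, 21.8, 19.4 and 17.3 CPM in hydrogel 1 to 4, against 35.6, 45.2, 43.0 and 46.1 CPM in liquid 1 to 4. The means were 21.5 ± 4.44 CPM in hydrogel and 42.5 ± 4.74 CPM in liquid (SD, n = 4 each). The groups lay apart with little spread, and a log2 change of −0.98 ± 0.14, or 1.97-fold, had an adjusted p of 0.0011 (edgeR). Cxcl3 had 0.906 to 1.51 CPM in hydrogel and 0.723 to 4.23 CPM in liquid and did not pass (log2 change −1.17 ± 0.45, adjusted p = 0.0778, edgeR); liquid 2 was the lowest of all libraries. Cxcl2 had 0.844 to 3.69 CPM in hydrogel and 0.296 to 2.55 CPM in liquid (0.44 ± 0.61, adjusted p = 0.624, edgeR). Cxcl1 was not tested, with 37 reads over the hydrogel and 35 over the liquid libraries.

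Cxcl10 (ENSMUSG00000034855), an interferon-induced ligand of Cxcr3, had 0.575, 0.375, 0.547 and 1.13 CPM in hydrogel 1 to 4, against 1.32, 2.27, 1.58 and 1.40 CPM in liquid 1 to 4. The groups did not overlap, although hydrogel 4 came close to liquid 1, and the log2 change was −1.31 ± 0.35 (adjusted p = 0.0192, edgeR). Its call was lost without hydrogel 2 or hydrogel 3, with adjusted p of 0.057 and 0.0577. The antisense gene Art3 overlaps it and had at most 0.547 CPM in hydrogel and 0.264 CPM in liquid.

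Cxcl12, the ligand of Cxcr4 and Ackr3, was not tested. Its reads numbered 3 over the hydrogel libraries and 70 over the liquid libraries, and all of the liquid reads were in liquid 1 and liquid 4, at 0.802 and 1.19 CPM. With no filter on low counts it was called lower, with a log2 change of −4.20 and an adjusted p of 0.0294 (edgeR). Cxcl14 had 2 reads in hydrogel and 15 in liquid. Cx3cl1, the membrane-bound ligand of Cx3cr1, had 0.912 to 1.34 CPM in hydrogel and 0.846 to 1.35 CPM in liquid (log2 change 0.20 ± 0.24, adjusted p = 0.576, edgeR), ranges that nearly coincide.

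Among the receptors, Ccr2 (ENSMUSG00000049103), which brings monocytes out of the marrow, rose most. It had 56.7, 114, 135 and 131 CPM in hydrogel 1 to 4, against 27.9, 51.6, 19.0 and 24.4 CPM in liquid 1 to 4. The means were 109 ± 36.2 CPM in hydrogel and 30.7 ± 14.4 CPM in liquid (SD, n = 4 each). The groups did not overlap, though hydrogel 1 and liquid 2 lay close, and the log2 rise was 1.83 ± 0.34 (adjusted p = 0.00323, edgeR), 3.56-fold. Ccr1 (ENSMUSG00000025804), the receptor of Ccl3, Ccl6 and Ccl9, had 5.51, 15.0, 15.3 and 15.0 CPM in hydrogel, against 3.24, 9.17, 2.00 and 4.65 CPM in liquid. Liquid 2 lay above hydrogel 1, and the call (log2 change 1.42 ± 0.46, adjusted p = 0.04, edgeR) did not survive 6 of the 8 omissions of 1 library (highest adjusted p 0.104, without liquid 1); it was kept without hydrogel 1 or liquid 2.

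Cx3cr1 (ENSMUSG00000052336), a receptor of monocytes and macrophages, had 5.40, 9.84, 13.2 and 12 CPM in hydrogel 1 to 4, against 5.20, 13.9, 4.16 and 6.90 CPM in liquid 1 to 4. Liquid 2 was the highest library of all, and Cx3cr1 did not pass (0.43 ± 0.38, adjusted p = 0.435, edgeR). Ccr3, the eosinophil receptor, had 0.110 to 0.687 CPM in hydrogel and 0.0880 to 0.888 CPM in liquid (0.09 ± 0.68, adjusted p = 0.936, edgeR). Cxcr3, of activated T and natural killer cells, was not tested, with 69 reads over the hydrogel and 32 over the liquid libraries.

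Cxcr4 (ENSMUSG00000045382), the receptor through which Cxcl12 draws megakaryocytes, was by CPM per kilobase the most abundant of the 29 genes in both cultures. It had 87.1, 91.7, 106 and 95.1 CPM in hydrogel 1 to 4, against 126, 125, 121 and 143 CPM in liquid 1 to 4. The means were 94.9 ± 8.06 CPM in hydrogel and 129 ± 9.83 CPM in liquid (SD, n = 4 each). Every hydrogel library lay below every liquid library, and the small log2 change of −0.44 ± 0.08 passed (adjusted p = 0.00303, edgeR), at 1.36-fold lower. Hydrogel 1, which lay nearest to liquid for the genes that rose, was here the lowest library of all. Ackr3, which binds and clears Cxcl12, had 0 to 0.603 CPM in hydrogel and 0.526 to 1.44 CPM in liquid and did not pass (log2 change −1.87 ± 0.76, adjusted p = 0.091, edgeR); without hydrogel 1 it did, with a log2 change of −3.07 and an adjusted p of 0.017.

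Ccr7 (ENSMUSG00000037944), which guides mature dendritic cells and T cells to lymph nodes, had 0.137, 0.437, 1.02 and 0.0647 CPM in hydrogel 1 to 4, against 1.70, 4.41, 1.5 and 3.38 CPM in liquid 1 to 4. The groups did not overlap, and the log2 change of −2.76 ± 0.66 (adjusted p = 0.0116, edgeR) became −3.67 without hydrogel 3, the highest hydrogel library. Ccr9 (ENSMUSG00000029530), found on thymocytes and plasmacytoid dendritic cells, had 0.0548, 0.125, 0.0365 and 0.194 CPM in hydrogel, against 2.73, 6.38, 1.03 and 1.67 CPM in liquid. Every liquid library stood far above every hydrogel library. The log2 change of −4.78 ± 0.71 (adjusted p = 0.00118, edgeR) rests on 13 reads in hydrogel and 389 in liquid and was −4.08 without liquid 2. Antisense neighbours of Ccr9 had at most 0.0647 CPM in hydrogel and 0.263 CPM in liquid, and Gm17200, which overlaps it on the same strand, was not analysed here. Cxcr2, the neutrophil receptor, had 1.23 to 2.08 CPM in hydrogel and 1.80 to 7.33 CPM in liquid and did not pass (−1.15 ± 0.40, adjusted p = 0.0556, edgeR); liquid 3 lay within the hydrogel range.

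Reads of these genes were few beside those of the platelet chemokines. Pf4 and Ppbp together took 98.0 to 99.2% of the reads of all listed chemokines in hydrogel and 98.8 to 99.5% in liquid. Pf4 (ENSMUSG00000029373) fell, with 3171 to 4060.3 CPM in hydrogel and 4114 to 5698 CPM in liquid (log2 change −0.55 ± 0.14, adjusted p = 0.0182, edgeR), and its call was not kept without hydrogel 2, 3 or 4 or liquid 1 or 4 (adjusted p 0.0511 to 0.0693). Ppbp (ENSMUSG00000029372) had 6478 to 9216 CPM in hydrogel and 6970.2 to 12915 CPM in liquid and did not pass (−0.55 ± 0.22, adjusted p = 0.0819, edgeR). The 19 chemokines of the main list that had a row, which leaves out Pf4 and Ppbp, summed together had 104 to 199.6 CPM in hydrogel and 78.4 to 136 CPM in liquid, with hydrogel 1 below liquid 2 and liquid 4.

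To compare genes with each other, mean CPM was divided by exon length in GENCODE M21. In hydrogel the order after Ppbp, Pf4 and Cxcr4 (52.5 CPM per kilobase) was Ccl3 (23.1), Ccl9 (22.4), Ccr2 (16.2), Ccl6 (12.9), Ccl4 (12.6) and Cxcl5 (11.6 CPM per kilobase). In liquid it was, after Cxcr4 (71.2), Cxcl5 (22.8), Ccl9 (8.42), Ccl3 (7.06), Ccl6 (6.45) and Ccr2 (4.55 CPM per kilobase). Cxcl5 was thus the fourth in liquid and the ninth in hydrogel. The ranges over libraries of Ccl3, Ccl9, Ccr2, Ccl6, Ccl4 and Cxcl5 overlapped in hydrogel. Taken library by library, Ccl9 and Ccr2 lay above Ccl6, and Ccl3 above Ccl4, in each hydrogel library. Ccl3 and Ccl9 changed places between libraries, so the full order there is not resolved. Cxcr4 lay above all of them in every library.

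**Figure D3:**
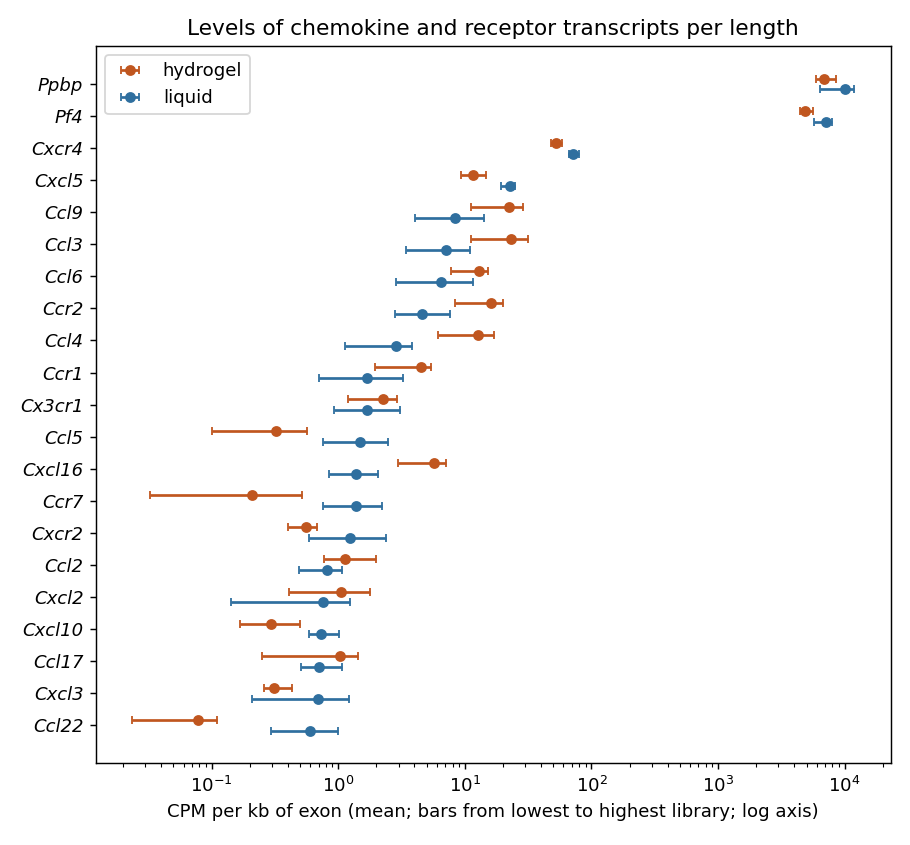
Mean CPM per kilobase of exon (log axis) of Pf4, Ppbp and the chemokine and receptor genes that reached 0.5 in either culture, hydrogel above liquid in each row, with bars from the lowest to the highest of 4 libraries. Ppbp and Pf4 stand at 4839 to 10046 CPM per kilobase, and Cxcr4 follows at 52.5 in hydrogel and 71.2 in liquid.

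The rest of the family was read from lists of 17 other chemokines and 15 other receptors, of which 8 had enough counts to be tested. Of these, 2 were higher and 3 lower, where 15.1% of all tested genes were higher and 14.1% lower. Cmklr1, the receptor of the attractant chemerin, had 9.15, 19.4, 15.0 and 15.5 CPM in hydrogel 1 to 4, against 0.321, 2.99, 0.858 and 1.35 CPM in liquid 1 to 4, with groups far apart and a log2 rise of 3.44 ± 0.50 (adjusted p = 0.00106, edgeR) that became 4.09 without liquid 2. Ccrl2, an atypical receptor that holds chemerin at the cell surface, had 6.05 to 11.7 CPM in hydrogel and 2.25 to 3.25 CPM in liquid (1.73 ± 0.22, adjusted p = 0.000591, edgeR). Cxcr1, the close relative of Cxcr2, had 11.9 to 16.8 CPM in hydrogel and 33.3 to 67.6 CPM in liquid (−1.59 ± 0.22, adjusted p = 0.000889, edgeR). Ackr1, an atypical receptor that binds many inflammatory chemokines, had 6.28 to 8.06 CPM in hydrogel and 10.8 to 17.2 CPM in liquid (−0.95 ± 0.15, adjusted p = 0.00169, edgeR); its exons overlap Cadm3 on the same strand. Pf4 was the third that fell.

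Downstream of the receptors, 7 of 37 signalling genes rose and 8 fell, 18.9% and 21.6%, shares closer to the background of all genes. Pik3r5, a regulatory subunit of phosphoinositide 3-kinase gamma, had 27.6, 73.8, 84.8 and 60.9 CPM in hydrogel 1 to 4, against 5.36, 18.4, 7.57 and 6.74 CPM in liquid 1 to 4 (log2 change 2.7 ± 0.43, adjusted p = 0.00166, edgeR). Rac2, the haematopoietic Rac GTPase that drives chemotaxis, had 213 to 255 CPM in hydrogel and 145 to 158 CPM in liquid (0.68 ± 0.07, adjusted p = 0.000357, edgeR). Plcb3, a phospholipase C, had 71.1 to 83.0 CPM in hydrogel and 91.5 to 117 CPM in liquid (−0.42 ± 0.08, adjusted p = 0.00482, edgeR). Rgs10, which speeds the switching-off of inhibitory G proteins, had 258 to 337 CPM in hydrogel and 338 to 512 CPM in liquid (−0.69 ± 0.14, adjusted p = 0.00572, edgeR). Without hydrogel 2, 9 of the 37 were called in either direction, where 2700 of all 14127 tested genes were.

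Markers of macrophages were higher in hydrogel, the same direction as the genes that rose. The summed level of 20 macrophage markers was 4306 to 9379 CPM in hydrogel and 1149 to 2499 CPM in liquid. Of the 19 tested, 16 rose and 0 fell, where 15.1% of all tested genes rose and 14.1% fell. Each of the 20 had more than 3 reads. The mean centred log2 CPM of these markers was 0.30 in hydrogel 1 and 1.17 to 1.30 in the other hydrogel libraries, against −0.03 in liquid 2 and −1.60 to −0.94 in the other liquid libraries. Hydrogel 1 was thus the lowest hydrogel library and liquid 2 the highest liquid library in this score, as they were for Ccl9, Ccr1 and Ccr2. In bulk RNA, fewer cells of a type and less RNA per cell cannot be told apart.

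When this score was added to the edgeR model beside culture, an alternative chosen after the data were seen, 0 of the chemokine and receptor genes were called higher and 6 lower. Of these 6, Cxcr2 (−2.83, adjusted p = 0.00594, edgeR) and Cx3cr1 (−1.63, adjusted p = 0.0103, edgeR) were not called with culture alone, and the value of Cx3cr1 turned sign. The score shared 78.7% of its variance with culture, which leaves the fit little to separate them (610 genes were called in all). The log2 changes of the 6 genes that rose became 0.41 for Ccl4, 0.23 for Cxcl16, 0.11 for Ccr2, −0.07 for Ccl3, −0.69 for Ccl9 and −1.08 for Ccr1, with adjusted p of 0.11 to 0.957. Ccl5, Ccl22, Ccr7 and Ccr9 stayed called lower, at −4.25, −5.24, −5.03 and −6.83, with adjusted p of 0.000963 to 0.0106. Cxcr4 and Cxcl5 had log2 changes of −0.58 and −0.88 and missed the threshold (adjusted p of 0.0651 and 0.0827), as did Cxcl10 (−2.0, 0.115).

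**Figure D4:**
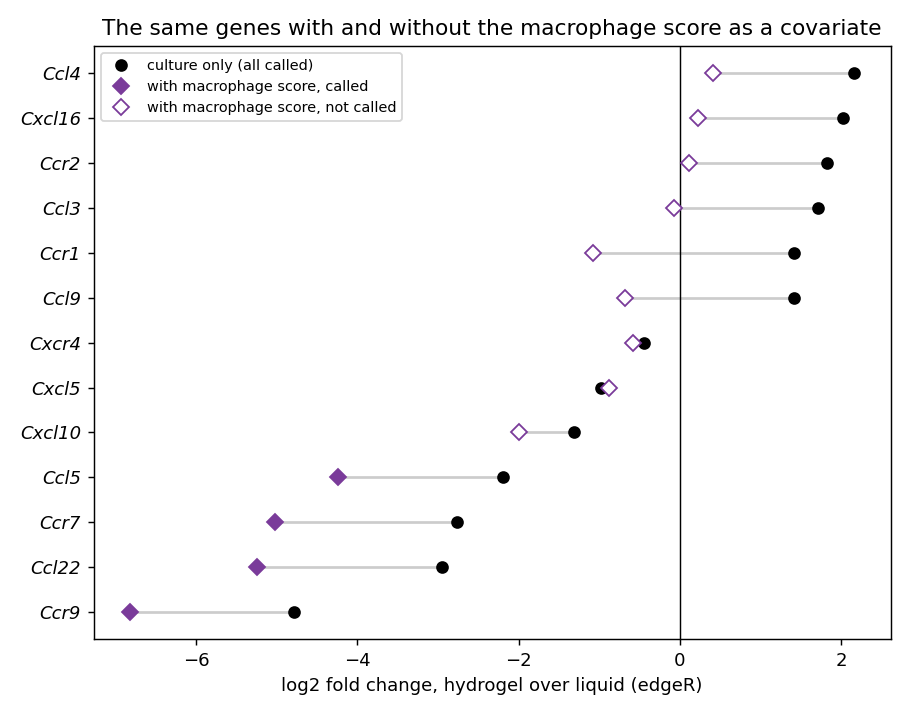
Log2 fold change of hydrogel over liquid (edgeR) of the 13 called genes with culture as the only term (black circles) and with the macrophage score added (diamonds, filled where called). The 6 genes that rose lie between −1.08 and 0.41 with the score, while Ccl5, Ccr7, Ccl22 and Ccr9 lie further below 0.

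The 12 dendritic cell markers had summed levels of 332 to 694 CPM in hydrogel and 177 to 499 CPM in liquid, and none was at 0. Of the 9 tested, 2 rose and 4 fell (22.2% and 44.4%), where 15.1% of all tested genes rose and 14.1% fell. The sum is dominated by Cd74 and H2-Ab1, which other antigen-presenting cells also express. The 2 that rose were Cd74, with 210 to 475 CPM in hydrogel and 87.8 to 292 CPM in liquid, and Itgax, with 5.67 to 12.4 CPM in hydrogel and 1.80 to 5.26 CPM in liquid. The 4 that fell were Clec9a, Cd209a, Siglech and Flt3. Siglech, a marker of plasmacytoid dendritic cells, had 0.0647 to 0.292 CPM in hydrogel and 1.06 to 5.85 CPM in liquid. Over the 9 tested, 55.6% had a log2 change above 0, with a median of 0.16, so the list did not move in a single direction. Neutrophil markers summed to 435 to 1011 CPM in hydrogel and 433 to 1905 CPM in liquid, and stromal and endothelial markers to 237 to 340.3 CPM and 386 to 529 CPM. Mast cell, basophil and eosinophil markers summed to 117 to 244 CPM in hydrogel and 162 to 503 CPM in liquid, and lymphoid markers to 57.9 to 145 CPM and 24.1 to 54.2 CPM. Of 12 tested neutrophil markers 2 rose and 2 fell, and of 6 stromal and endothelial markers 1 rose and 2 fell. Of 10 tested mast cell, basophil and eosinophil markers 0 rose and 4 fell, and of 5 lymphoid markers 2 rose and 1 fell. The part of these cell types in the chemokine and receptor changes was not tested.

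The 15 megakaryocyte markers were all detected and summed to 24755 to 37575 CPM in hydrogel and 28583 to 50323 CPM in liquid. Of these markers 11 fell and 0 rose, where 14.1% of all tested genes fell and 15.1% rose. Library totals ran from 27012172 to 49281611 counts. The lowest genes named here rest on few reads, and their levels in single libraries are imprecise.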

How the data were processed

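The deposited table holds raw read counts per Ensembl gene for the 4 hydrogel and 4 liquid libraries, made by the authors from stranded poly(A) libraries. The tools named in the submitters' processing notes are HTSeq 0.13.5, STAR 2.7.10b and bcl2fastq, with the build GRCm39. For the counting, annotation release and strand setting were not given in the sources used here, so reads of overlapping and antisense genes cannot be told apart. GENCODE M21 gave symbols for 26534 of 27679 IDs and exon lengths, and 2 stray text lines were left out. Totals were 27012172 to 49281611 counts per library.

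Genes were filtered by edgeR's filterByExpr (13845 tested), scaled by TMM and tested with edgeR 4.0.16 (quasi-likelihood, R 4.3.3) in a model of culture alone; p-values were adjusted by Benjamini-Hochberg over all tested genes at 0.05. A standard error is the log2 change divided by the square root of its F. The script was tested on simulated data. Alternatives used DESeq2 1.42.0, limma 3.58.1 (voom), other scalings and filters, a replicate block, left-out libraries and a macrophage score. Per-library values are given for genes that were called or reached 5 CPM in a culture; from the other lists at most the 4 with the smallest adjusted p, Pf4 and Ppbp are named. Zmynd15, Art3, the overlapping neighbours of Ccr9, Cadm3, Cxcr6 and the single dendritic markers were chosen after their values were seen. The genes and lists were chosen with earlier results of these data known. The sources do not say whether the cultures came from separate mice, so p-values measure the spread between these cultures.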

Additional observations from a re-analysis of the deposited data

Results flagged for a closer look

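Over 75 groups of 4 libraries with at least 10 reads, 8 held a library whose gap to the nearest other exceeded Dixon's 95% critical value, and chance gives about 1 in 20. Hydrogel 1 stood apart for Ccr1 at 5.51 CPM (nearest other 15.0 CPM), for Ccl6 at 13.9 CPM (nearest 25.5 CPM) and for Cxcl3 at 1.51 CPM (nearest 0.968 CPM). Hydrogel 3 stood apart for Ccl2 at 2.26 CPM (nearest 1.06 CPM), and hydrogel 2 for Ackr1 at 6.28 CPM (nearest 7.92 CPM). Liquid 2 stood apart for Pik3r5 at 18.4 CPM (nearest 7.57 CPM) and for Rgs10 at 338 CPM (nearest 506 CPM), and liquid 4 for Cxcl14 at 0.317 CPM (nearest 0.0440 CPM).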

How the results depend on the processing

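The 6 genes that rose and 7 that fell were called the same way with DESeq2, voom, no low-count filter and each other scaling (DESeq2 called 6 higher and 9 lower). A filter of at least 1 CPM in 4 libraries left 4 lower, since Ccl5, Ccl22 and Ccr9 were no longer tested. Single omissions gave 4 to 9 higher, 6 to 8 lower, 4 to 7 of the other chemokines and receptors (5 with all libraries), 9 to 22 of the signalling genes (15 with all libraries) and 2700 to 4975 of all genes (4052 with all libraries; 2700 without hydrogel 2). With no low-count filter 8 of the other chemokines and receptors were called. Without hydrogel 1 and liquid 2 together, a choice made after the data were seen, 24 signalling genes and 5633 of all genes were called. The log2 change of Ccr3, not called in any single omission, ran from −0.279 to 0.804 over them and was below 0 without hydrogel 2 (−0.272), hydrogel 4 (−0.075), liquid 3 (−0.279) or liquid 4 (−0.069). With the macrophage score, chosen after the data were seen, 610 genes, 0 higher chemokine or receptor genes, 1 of the other chemokines and receptors and 1 signalling gene were called. Log2 changes that turned sign were −0.067 for Ccl3, −0.752 for Ccl6, −0.686 for Ccl9, −1.08 for Ccr1, −2.78 for Ccr3, −1.63 for Cx3cr1, 0.48 for Cxcl3, 0.518 for Ackr3, 0.411 for Ppbp and 0.058 for Rgs10; the cause was not tested. The replicate block called 7 higher and 8 lower, adding Ccl6 (adjusted p 0.0428, edgeR) and Ackr3 (adjusted p 0.0304, edgeR). Deviations of same-numbered libraries correlated at 0.22, 0.33, −0.13 and 0.10 for numbers 1 to 4, so the pairing did not hold for every number and the libraries are taken to share only a number; hydrogel 1 correlated best with liquid 3.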
